A study of Mus musculus with 22 samples.

Results

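The interferon response and the presentation of peptides on major histocompatibility complex (MHC) class I were followed through a fixed list of 42 genes in mouse embryonic stem cells of the E14 line. Members were found by their gene symbol in the deposited expression table, by a rule that uses no measured value. The table held 38 of the 42 genes among 18487, and the expression of Irf7, Ifit3, Rsad2 and Ifi44 was not analysed here. The cells had been treated with 10 compounds, DZNep, Valproate, Bromosporine, OICR, MS023, IOX1, Chaetocin, UNC0379, Garcinol and CPTH2, or belonged to a group labelled NC. The labels define neither NC nor OICR. NC served as the reference here, and OICR is counted among the compounds. Each of the 11 groups had 2 libraries, numbered 1 and 2, giving 22 libraries of poly(A)-selected RNA, and in each pair of values given here number 1 comes first. All groups shared the cell line and, so far as the labels say, carried no genetic change. The labels give neither dose nor exposure time, and nothing in them says that the 2 libraries of a group came from separate cultures, so that p-values measure the spread between libraries, which may be technical.

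DZNep blocks the breakdown of S-adenosylhomocysteine and so inhibits methyltransferases widely, Valproate inhibits histone deacetylases, and Bromosporine occupies bromodomains, the readers of acetylated lysine. MS023 inhibits type I arginine methyltransferases, IOX1 inhibits 2-oxoglutarate oxygenases, among them histone demethylases, and Chaetocin and UNC0379 inhibit lysine methyltransferases. CPTH2 and Garcinol inhibit histone acetyltransferases. No target is given here for OICR. In most cell types, viral RNA in the cytosol is sensed by the helicases RIG-I (Ddx58) and MDA5 (Ifih1), which signal through the adaptor Mavs to the factor Irf3 and induce interferon. Interferon then acts through a complex that holds Stat2 and Irf9 on genes with an interferon-stimulated response element, among them antiviral effectors and the genes that cut, transport and display peptides on MHC class I. Pluripotent stem cells are known for a weak interferon response and low MHC class I. The comparison with NC asks which of these genes differed after each treatment of chromatin.

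The response element was searched on both strands of the 300-base RefSeq promoter windows (GRCm38.p6, the assembly behind mm10), from 250 bases before to 50 after the start. Its core was taken as 2 copies of GAAA with any 2 bases between them. The core lay in the windows of 13 of the 33 listed members with a window (39.4%) and of 3.99% of all genes with one. These 33 are not the same set as the 33 members tested for differences below. They include Ifit3 and Rsad2, which hold the core but whose expression was not analysed. Windows were missing for other members, among them Dhx58, Ifi27, Mx2 and Tap2. The core followed by CT, every match of which also holds the core, lay in 7 members (21.2%) and 0.303% of genes. A match of letters is a description and does not show that a factor binds. The lines below show the core in capitals within 30 bases, on the strand of the gene. The first 3 members differed from NC with at least 1 compound, whereas Isg15, Ifit1 and Cxcl10 are textbook interferon-stimulated genes that stayed near 0 here.
Ddx58, chr4:40239804-40239833, minus strand: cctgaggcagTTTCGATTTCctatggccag
Stat2, chr10:128270266-128270295, plus strand: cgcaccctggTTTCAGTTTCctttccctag
Bst2, chr8:71537577-71537606, minus strand: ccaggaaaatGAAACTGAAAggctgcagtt
Isg15, chr4:156200871-156200900, minus strand: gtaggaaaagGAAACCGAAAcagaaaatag
Ifit1, chr19:34640775-34640804, plus strand: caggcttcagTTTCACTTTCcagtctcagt
Cxcl10, chr5:92349083-92349112, minus strand: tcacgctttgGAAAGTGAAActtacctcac
The core stands in the reverse direction in Ddx58, Stat2 and Ifit1 and in the forward direction in the other 3. Thus members with this element were found both among well-expressed genes such as Bst2 and among those near 0, such as Ifit1, listed at 0 in 19 libraries.

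Values are normalised read counts rounded to whole numbers. Those of the members ran from 0 to 6707, and the highest value of any gene was 221616. Median values over the 22 libraries were at least 1000 for 5 members, at least 100 for 14 more, at least 10 for 10 more and under 10 for 9. On the log2(value + 1) scale the highest mean levels were those of Trim25 (12.34), the ubiquitin ligase that activates RIG-I, Adar (11.33), which edits double-stranded RNA, and Mavs (10.84). The lowest were those of the ubiquitin-like protease gene Usp18 (0.32), Ifit1 (0.35), whose product binds viral RNA, and the immunoproteasome subunit Psmb8 (0.12). Psmb8 was listed at 0 in 20 libraries, Ifit1 in 19, Usp18 in 18, the chemokine gene Cxcl10 in 12 and the ubiquitin-like modifier Isg15 in 9, and none of these 5 exceeded 7 in any library. They fell below the minimum for testing, a value of 10 in at least 2 libraries, which the other 33 members passed. Per kilobase of the longest transcript, the median normalised value was 904 for Trim25, 842 for Bst2, 496 for B2m, 295 for H2-K1 and 244 for H2-D1, against 23.4 for Tap1, 13.7 for Psmb9 and 2.03 for Tap2. These are medians over all libraries and do not give the order within each group.

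**Figure D1:**
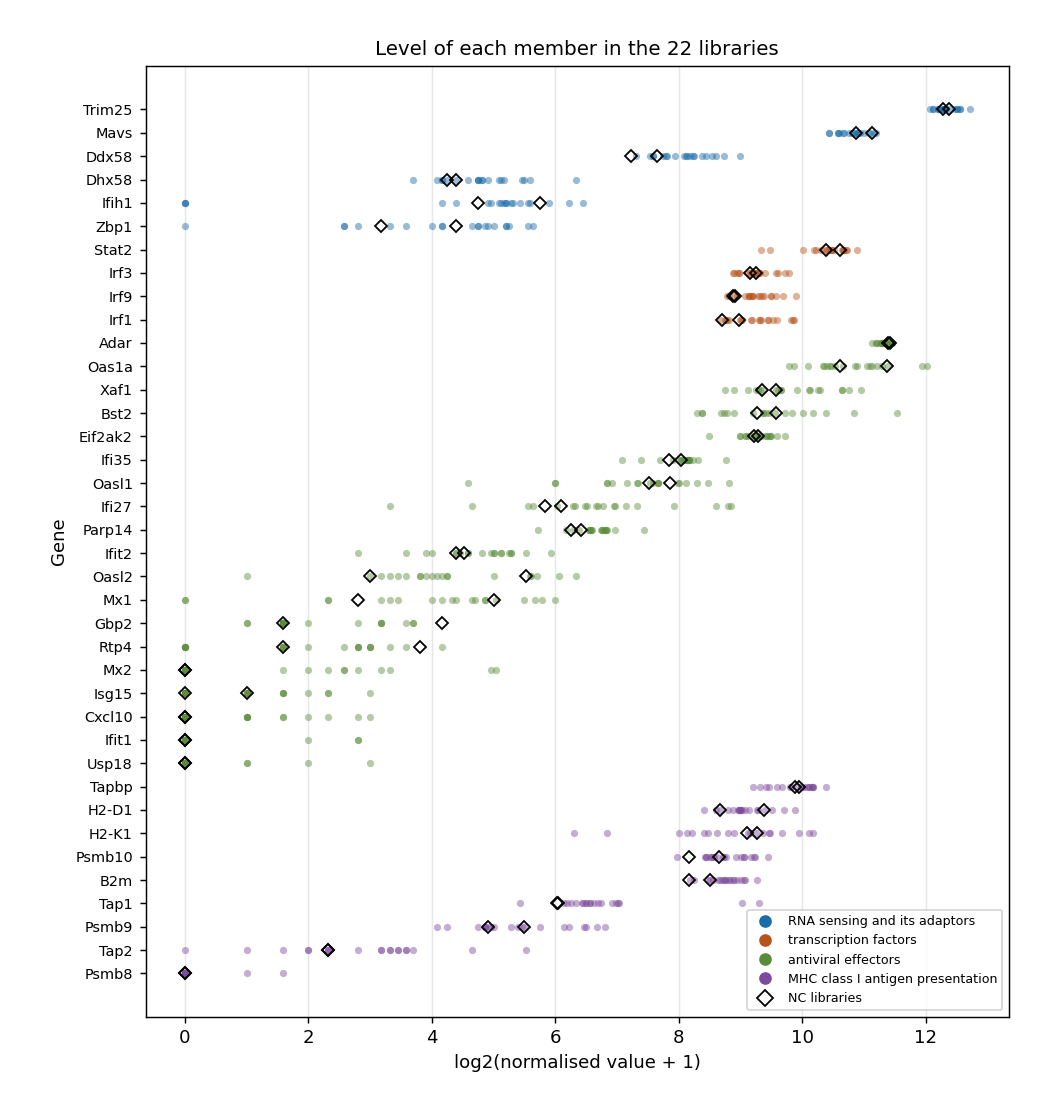
Each point is 1 of the 22 libraries, the horizontal axis is log2(normalised value + 1), genes are grouped by role in colour, and open diamonds are the NC libraries. Trim25, Adar and Mavs lie at the right with little spread, and Isg15, Cxcl10, Ifit1, Usp18 and Psmb8 never exceed a value of 7.

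Differences were tested with limma on log2(value + 1) across 17275 genes, and a gene is said here to have risen or fallen where the Benjamini-Hochberg adjusted p was under 0.05 and the fold change over 2. Against NC, 12 of the 33 tested members passed with at least 1 compound, in 16 calls of which 10 were higher and 6 lower. DZNep accounted for 6 of 33 members (11.4% of all genes passed), Valproate for 5 (5.28% of all genes), Bromosporine for 4 (3.34% of all genes) and OICR for 1 (0.388% of all genes). With DZNep 4 members rose and 2 fell (5.27% and 6.14% of all genes), with Valproate 5 rose and 0 fell (2.73% and 2.55%), with Bromosporine 1 rose and 3 fell (0.573% and 2.77%), and with OICR 1 fell (0.26%). Of the 12 members, 9 passed with a single compound, H2-K1 and Psmb9 with 2 and Ifi27 with 3. In all 16 calls the 2 libraries of the compound lay beyond both NC libraries. Such a separation was found for 58.9% of all genes with DZNep, 50.6% with Valproate, 49.4% with Bromosporine and 40.1% with OICR, and for 21, 21, 22 and 14 of the 33 members. The median log2 difference of the members was 0.43 with Valproate (all genes -0.02), -0.24 with Bromosporine (all genes 0.01), 0.00 with DZNep (all genes -0.04) and 0.19 with OICR (all genes 0.01). In bulk RNA, fewer cells with a transcript and less of it per cell cannot be told apart. When only the 4 libraries of a comparison were fitted, 1 of the 16 calls remained, Mx2 with Valproate, which had reached the minimum for testing only through the Valproate libraries.

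With the other 6 compounds, 0 members passed in limma, beside 0% of all genes with UNC0379, 0.116% with IOX1, 0.973% with MS023, 0.00579% with Garcinol, 0.00579% with CPTH2 and 0.0174% with Chaetocin. At an unadjusted p under 0.05 there were 5 members with UNC0379 (15.2%, against 6.08% of all genes), 4 with IOX1 (12.1%, against 12.4%), 3 with MS023 (9.09%, against 15%), 3 with Garcinol (9.09%, against 3.62%), 1 with CPTH2 (3.03%, against 0.944%) and 0 with Chaetocin (against 4.72%). Their median log2 differences were 0.27 with UNC0379, 0.17 with IOX1, 0.27 with MS023, 0.17 with Garcinol, 0.08 with CPTH2 and 0.09 with Chaetocin. An F test over the 11 groups, which needs no reference group, passed at an adjusted p under 0.05 for 18 of the 33 members, against 29.7% of all genes. It took in 7 members that passed in no comparison with NC, namely Irf3, Mavs, Irf9, Eif2ak2, Tapbp, Ifi35 and Zbp1.

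**Figure D2:**
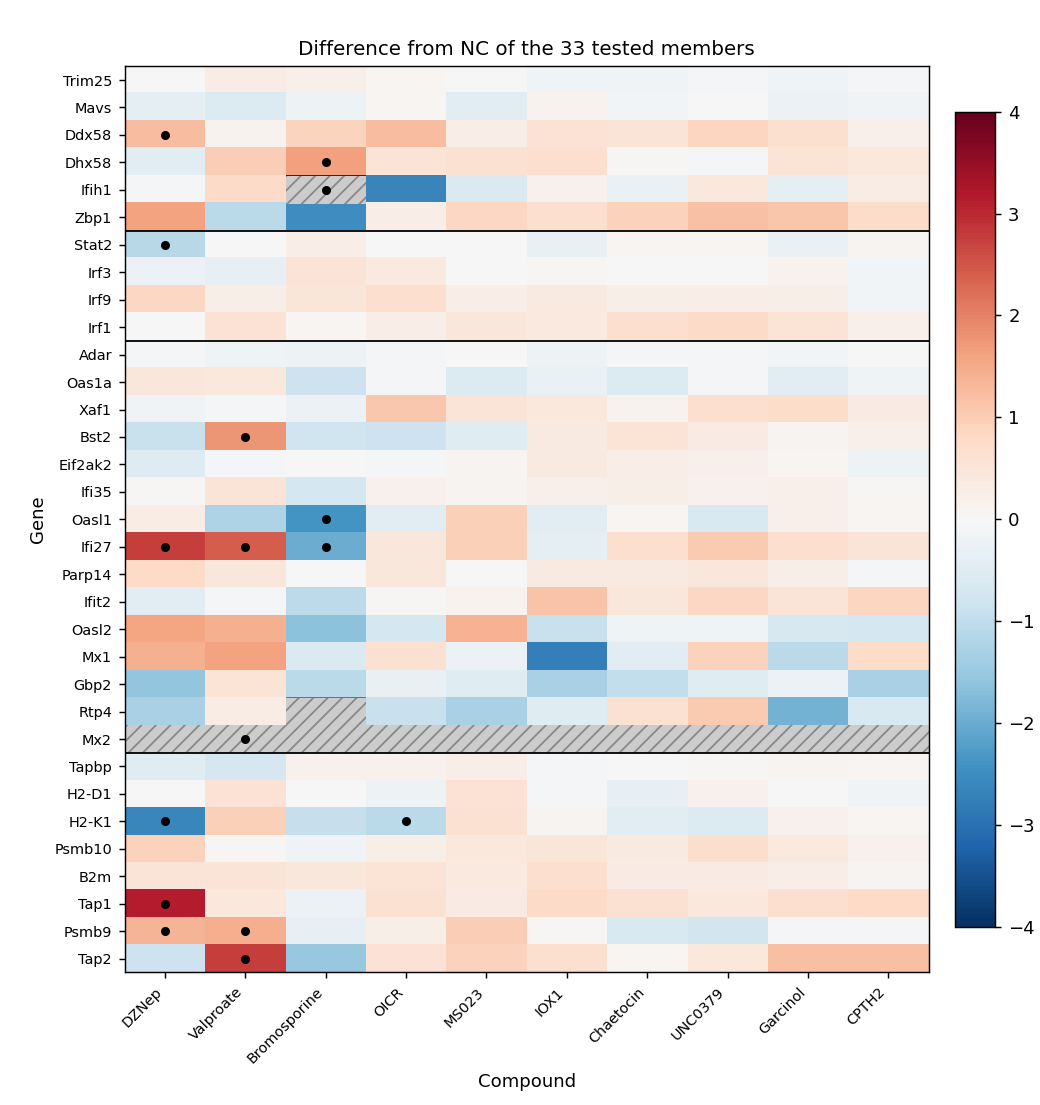
Rows are the 33 tested members, divided by lines into RNA sensing, transcription factors, antiviral effectors and MHC class I presentation, columns are the 10 compounds, and colour is the log2 difference from NC (red higher, blue lower). Black dots mark the 16 differences that passed and hatched grey marks pairs with a group listed at 0 in both libraries, for which no size is drawn; the dots stand in the columns of DZNep, Valproate, Bromosporine and OICR.

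Among the genes of MHC class I presentation, the class I heavy chain H2-K1 fell with DZNep, whereas Tap1 and Psmb9, of the transporter and the immunoproteasome, rose. H2-K1, a class I heavy chain (chr17:33996017-34000347, minus strand, mm10), had 548 and 617 normalised reads in NC and 78 and 114 with DZNep. These DZNep values were the lowest of all 22 libraries, and the difference was -2.61 on the log2 scale (SE 0.20, adjusted p = 5.72e-06 in limma). With OICR, H2-K1 had 256 and 297, a log2 difference of -1.07 (SE 0.20, adjusted p = 0.0308). Valproate lay on the other side of NC, with 1110 and 1152, the highest of all libraries, at an adjusted p of 0.00874 but a fold just under 2 (log2 difference 0.96). Bromosporine had 338 and 281 (log2 difference -0.91, adjusted p = 0.0191), also short of 2-fold. Of the 31-base stretches of H2-K1, 22.5% occur elsewhere, chiefly in H2-Bl and H2-Q7, so that reads may be divided among class I genes. The second heavy chain of the list, H2-D1, had 404 and 666 in NC and 517 and 539 with DZNep, with overlapping groups, and B2m, the light chain, ranged from 287 to 614 over all libraries. Neither passed with any compound. Of the 31-base stretches of H2-D1, 27.7% occur in other genes, chiefly H2-K1.

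Tap1, a subunit of the transporter that carries peptides into the endoplasmic reticulum (chr17:34187553-34197225, plus strand), had 64 and 65 normalised reads in NC and 522 and 629 with DZNep. No other library exceeded 130, and the log2 difference was 3.13 (SE 0.31, adjusted p = 1.83e-05). Psmb9, an immunoproteasome subunit (chr17:34181987-34187764, minus strand), had 29 and 44 in NC, 87 and 101 with DZNep and 89 and 111 with Valproate. Both compounds exceeded every NC library, by 1.37 (SE 0.39, adjusted p = 0.0213) and 1.45 (SE 0.39, adjusted p = 0.0302) on the log2 scale. Tap1 and Psmb9 are neighbours that point away from each other, with RefSeq starts 225 bases apart and no match to the response element between them, and their annotated exons overlap on opposite strands. Whether reads were counted by strand is not stated, so reads in that overlap could have been given to either gene. With Valproate Tap1 had 89 and 85, both above NC, and did not pass (log2 difference 0.43, SE 0.31, adjusted p = 0.424). The NC mean of Tap1 was low (64.5), with only Bromosporine below it (56). The means with CPTH2 (114) and IOX1 (111.5) exceeded that with Valproate (87). Tap2, the partner of Tap1 in the transporter (chr17:34203527-34216321, plus strand), had 4 in both NC libraries and 45 and 24 with Valproate, higher by 2.76 on the log2 scale (SE 0.71, adjusted p = 0.024). With DZNep it had 1 and 3, below both NC libraries, and did not pass.

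Of the other peptide-loading genes, Tapbp, which bridges the transporter and class I chains, had a lowest value of 588, a median of 999.5 and a highest of 1342 over the libraries. It passed the F test (adjusted p = 0.0389), with its lowest group mean with Valproate (612) and its highest with MS023 (1176). Psmb10, the remaining immunoproteasome subunit tested, had 288 and 400 in NC and 696 and 605 with DZNep, at an adjusted p of 0.0247 and a log2 difference of 0.93 that stayed under 2-fold. In leave-one-out fits, a group reduced to 1 library is assumed to vary like the others. The calls of H2-K1 and Tap1 with DZNep held without any 1 of the 4 libraries. Psmb9 with DZNep was lost without NC library 1 (log2 difference 1.07, adjusted p = 0.181), DZNep library 1 (1.47, 0.0534) or DZNep library 2 (1.26, 0.0854), and with Valproate without any of the 4 (1.16 to 1.74, adjusted p 0.0533 to 0.208). Tap2 with Valproate was lost without NC library 1 (2.76, 0.108), NC library 2 (2.76, 0.102) or Valproate library 1 (2.32, 0.169). H2-K1 with OICR was lost without any of the 4 (-0.97 to -1.18, adjusted p 0.123 to 0.203).

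**Figure D3:**
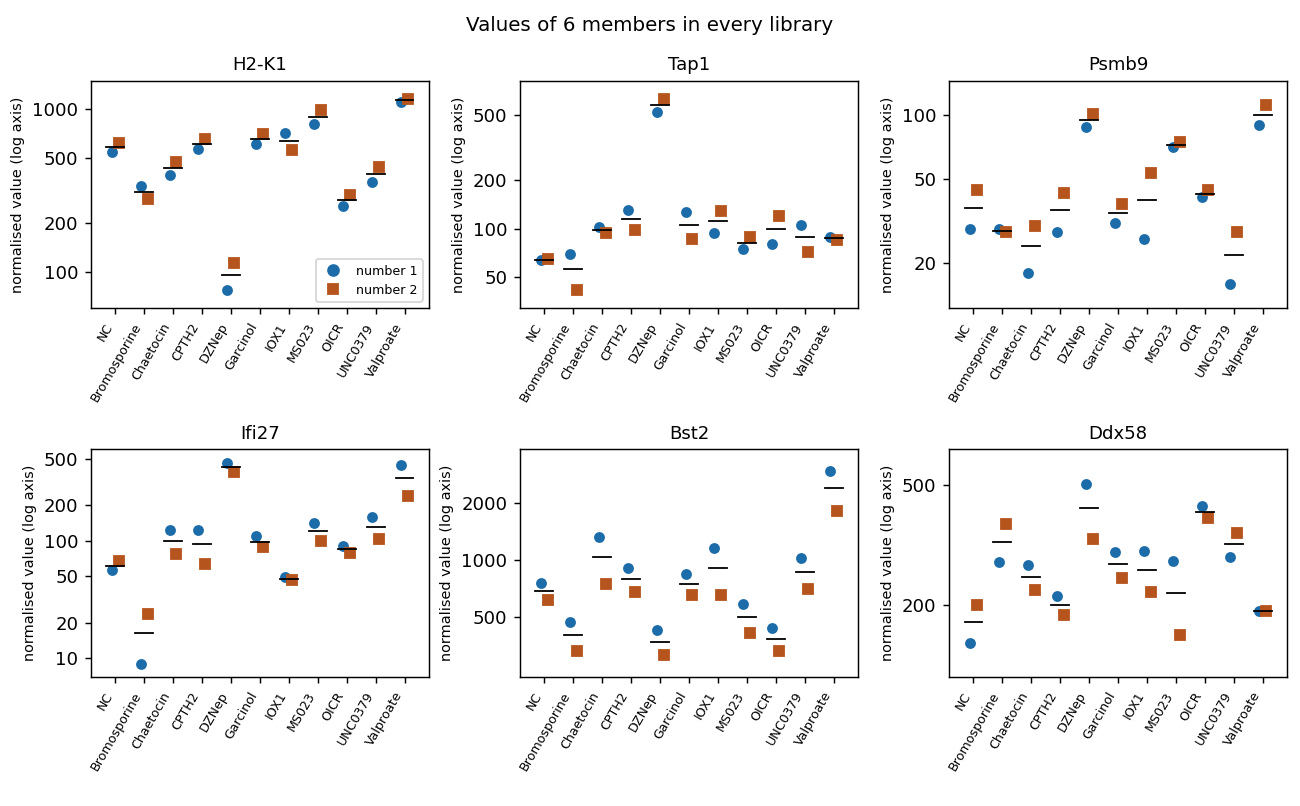
Normalised values on a log axis for 6 members in all 11 groups, with circles for library 1, squares for library 2 and bars for the mean of the 2. DZNep stands below all groups for H2-K1 and above all groups for Tap1 (522 and 629), and Valproate stands above all groups for Bst2 (2964 and 1829).

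Of the 6 genes of RNA sensing, 1 passed with DZNep (16.7%, against 11.4% of all genes) and 2 with Bromosporine (33.3%, against 3.34% of all genes). None passed with the other compounds. Ddx58, encoding RIG-I (chr4:40203773-40239828, minus strand), had 149 and 200 normalised reads in NC and 507 and 330 with DZNep. Both DZNep libraries lay above NC, by 1.24 on the log2 scale (SE 0.29, adjusted p = 0.00667). With OICR the values were 427 and 389, a similar log2 difference of 1.23 (SE 0.29) that did not pass (adjusted p = 0.0775). NC was the group with the lowest mean of Ddx58, and against the mean of all other groups the DZNep difference was 0.70 and no longer over 2-fold. The call was also lost without NC library 1 (1.03, adjusted p = 0.079) or DZNep library 1 (0.93, adjusted p = 0.067). Ifih1, encoding MDA5 (chr2:62595798-62646255, minus strand), was listed at 0 in both Bromosporine libraries against 53 and 26 in NC (adjusted p = 0.0171). It was also listed at 0 in OICR library 2, beside 36 in OICR library 1, and in no other library. Dhx58, encoding LGP2, a related helicase that modulates both sensors (chr11:100694884-100704271, minus strand), had 18 and 20 in NC and 80 and 47 with Bromosporine, higher by 1.64 on the log2 scale (SE 0.40, adjusted p = 0.0318). An antisense gene, Dhx58os, overlaps it. Thus with Bromosporine the values of Ifih1, listed at 0, lay below NC and those of Dhx58 above it. A listed 0 can be a failed estimate, so the size of the Ifih1 difference is unknown. Without Bromosporine library 1 neither passed (adjusted p = 0.0959 for Ifih1 and 0.242 for Dhx58), and Ifih1 was also lost without each of the other 3 libraries (adjusted p 0.0505 to 0.144) and Dhx58 without either NC library (0.184 and 0.0993).

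Downstream of the sensors, Mavs had 2231 and 1880 normalised reads in NC and 1386 and 1389 with Valproate, the lowest of all libraries (log2 difference -0.56, SE 0.10, adjusted p = 0.00393, under 2-fold). DZNep gave 1536 and 1619 (log2 difference -0.38, adjusted p = 0.0163). Over all libraries Mavs had a median of 1866 and a highest value of 2339 (F test, adjusted p = 0.00222). Zbp1, a sensor of Z-form nucleic acids, ranged from 0 to 49 with a median of 22 (F test, adjusted p = 0.0455), and its group means were lowest with Bromosporine (2.5) and highest with DZNep (41). Trim25 lay between 4311 and 6707 in all libraries and passed neither test.

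Of the 4 transcription factors tested, only Stat2 passed against NC, and it fell. Stat2, which carries the activating domain of the interferon-stimulated complex (chr10:128270559-128292849, plus strand), had 1565 and 1333 normalised reads in NC and 709 and 643 with DZNep. Every other library had at least 1032. The log2 difference was -1.10 (SE 0.18, adjusted p = 0.000862), and without NC library 1 it was -0.98 (adjusted p = 0.0154), just under 2-fold. Irf9, its DNA-binding partner, went the other way with DZNep, with 955 and 765 against 470 and 483 in NC, though under 2-fold (log2 difference 0.84, SE 0.17, adjusted p = 0.00327). Over all libraries Irf9 had a lowest value of 439, a median of 580 and a highest of 955 (F test, adjusted p = 0.0189). Irf3, which the adaptor Mavs activates, had 844 and 882 with Bromosporine against 570 and 609 in NC (log2 difference 0.55, SE 0.11, adjusted p = 0.0113). Its lowest value was 469, with Valproate, and its median 607 (F test, adjusted p = 0.00154). Irf1, which drives class I genes after interferon gamma, ranged from 407 to 937 and did not pass.

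Among the antiviral effectors, Ifi27 was the member that passed with the most compounds, in both directions. Ifi27, an interferon-induced mitochondrial protein gene (chr12:103434211-103440239, plus strand), had 56 and 67 normalised reads in NC, 462 and 386 with DZNep, 446 and 243 with Valproate and 9 and 24 with Bromosporine. The Bromosporine libraries were the lowest of the 22 and the DZNep and Valproate libraries the 4 highest. The log2 differences were 2.77 with DZNep (SE 0.44, adjusted p = 0.000664), 2.41 with Valproate (SE 0.44, adjusted p = 0.0042) and -1.98 with Bromosporine (SE 0.44, adjusted p = 0.0203). The call with DZNep held without any 1 library, and that with Valproate was lost without Valproate library 1 (1.97, adjusted p = 0.0507). That with Bromosporine was lost without NC library 1 (-2.10, adjusted p = 0.0978), NC library 2 (-1.85, 0.106) or Bromosporine library 1 (-1.32, 0.2).

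Bst2, encoding tetherin, which holds budding virions at the cell surface (chr8:71534255-71537456, minus strand), had 760 and 615 in NC and 2964 and 1829 with Valproate. The Valproate values were the highest of all libraries, by 1.77 on the log2 scale over NC (SE 0.37, adjusted p = 0.00802). DZNep lay below NC with 427 and 314, the lowest library of all among them, but did not pass (log2 difference -0.90, adjusted p = 0.0946). Without NC library 2 the Valproate difference was 1.61 (adjusted p = 0.0643), and without Valproate library 1 it was 1.42 (adjusted p = 0.0868). Oasl1, a 2'-5' oligoadenylate synthetase-like gene that restrains Irf7 translation (chr5:114923240-114937915, plus strand), had 183 and 232 in NC and 23 and 63 with Bromosporine, lower on the log2 scale at -2.40 (SE 0.45, adjusted p = 0.0077). These were among the lowest values of the 22 libraries, and the highest, 448 and 355, were those of MS023. Oasl1 was lost without NC library 2 (-2.23, adjusted p = 0.0547) or Bromosporine library 1 (-1.69, adjusted p = 0.0869). Mx2, an antiviral GTPase gene annotated as a polymorphic pseudogene, had 32 and 30 with Valproate but 0 in NC libraries 1 and 2 (adjusted p = 0.0341). No other library exceeded 9. Mx2 passed the minimum for testing only through Valproate, and the call was lost without any 1 of the 4 libraries (adjusted p 0.102 to 0.143).

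Eif2ak2 and Ifi35 passed the F test alone. Eif2ak2, the kinase PKR that halts translation on double-stranded RNA, had a lowest value of 359, a median of 624 and a highest of 846 (adjusted p = 0.0369), and with DZNep it had 506 and 359 against 596 and 620 in NC. Ifi35 had a lowest value of 135, with Bromosporine, a median of 275 and a highest of 434, with Valproate (adjusted p = 0.0424). The 9 tested effectors that passed neither test were Adar, Oas1a, Xaf1, Parp14, Ifit2, Oasl2, Mx1, Gbp2 and Rtp4. Adar was the steadiest, between 2252 and 2800. Oas1a ranged from 885 to 4137, but 68.8% of its 31-base stretches occur in other genes, chiefly Oas1g and Oas1b, and its value is uncertain for that reason. Gbp2 and Rtp4 did not exceed 17, and Rtp4 was listed at 0 in 5 libraries.

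DZNep and Valproate, the compounds with the most member calls, were then contrasted directly in the same fit, a comparison chosen after their values had been seen. Of the 33 members 9 passed, 4 higher with DZNep and 5 higher with Valproate (10.8% of all genes passed, 4.85% and 5.92% by direction). H2-K1 was lower with DZNep than with Valproate by a log2 difference of -3.57 (SE 0.20, adjusted p = 1.53e-06), Tap2 by -3.58 (SE 0.71, adjusted p = 0.00282) and Bst2 by -2.67 (SE 0.37, adjusted p = 0.000261). Tap1 was higher with DZNep by 2.71 (SE 0.31, adjusted p = 6e-05). Ifi27 and Psmb9, which rose with both compounds, did not pass between them. The 95% interval of the difference ran from -0.62 to 1.33 for Ifi27 and from -0.94 to 0.77 for Psmb9. It was taken with the 11 residual degrees of freedom and is slightly wider than one from the limma test.

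Other genes of the pathway, from lists of interferons with their receptors and kinases, further nucleic acid sensors, further interferon-stimulated genes, further antigen presentation genes and the constitutive proteasome subunits, were counted by the same rule. Of the 83 tested, 15 (18.1%) passed with DZNep, 9 higher and 6 lower (11.4% of all genes, 5.27% higher and 6.14% lower), 12 (14.5%) with Valproate, 10 higher and 2 lower (5.28% of all genes, 2.73% and 2.55%), 7 (8.43%) with Bromosporine, 0 higher and 7 lower (3.34% of all genes, 0.573% and 2.77%) and 1 with MS023 (higher, as were 0.388% of all genes), and 0 with the other 6 compounds. The antigen presentation list of 20 tested genes accounted for 7 with DZNep (35%), 3 higher and 4 lower. It accounted for 7 with Valproate (35%), 6 higher and 1 lower. The interferon-stimulated list of 33 accounted for 6 with Bromosporine (18.2%), all of them lower. The shares of all genes are those just given for each compound. Of the constitutive proteasome subunits none passed with any compound. With DZNep, 1 of the 3 had an adjusted p under 0.05 in limma (0.0133) but stayed under 2-fold. As 2 examples, Psmb5 had 4508 and 5268 in NC and 6143 and 7290 with DZNep. Psmb7 had 9551 and 10950 in NC and 9300 and 17645 with DZNep, libraries that lay on either side of NC. The median log2 difference of the 83 genes was 0.04 with DZNep, 0.02 with Valproate and -0.23 with Bromosporine, beside the medians of all genes given above.

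Nlrc5, the transactivator of MHC class I genes, had 10 and 4 normalised reads in NC, 62 and 48 with DZNep and 69 and 38 with Valproate, higher by 2.90 (SE 0.67, adjusted p = 0.00674) and 2.82 (SE 0.67, adjusted p = 0.0167) on the log2 scale. It thus rose with the compound that had the lowest H2-K1 as well as with the one that had the highest. Ikbke, a kinase that phosphorylates Irf3, had 13 and 25 in NC, 258 and 140 with DZNep and 64 and 95 with Valproate (log2 differences 3.32 and 2.05). Lgals3bp, a secreted glycoprotein gene, followed Ifi27 in direction, with 91 and 64 in NC, 321 and 250 with DZNep, 185 and 155 with Valproate and 21 and 18 with Bromosporine. Oas1c had 70 and 83 in NC, 407 and 354 with DZNep and 130 and 184 with Valproate. H2-Eb1, an MHC class II chain, had 165 and 148 in NC, 473 and 369 with DZNep and 656 and 465 with Valproate. Cd74, the class II invariant chain, had 12 and 15 in NC, 48 and 54 with MS023 and 31 and 53 with Valproate. In the other direction, Erap1, which trims peptides for class I, had 148 and 176 in NC, 71 and 68 with DZNep, 41 and 81 with Valproate and 36 and 85 with Bromosporine, lower than both NC libraries in all 6. Irf8 had 97 and 42 in NC, 20 and 2 with Bromosporine and 8 and 5 with Valproate.

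Leaving out 1 library at a time, an alternative added after the values had been seen, did not end the calls of Oas1c, Ikbke and Lgals3bp with DZNep, H2-Eb1 with Valproate or Lgals3bp with Bromosporine. Nlrc5 was lost with DZNep without NC library 2 (2.34, adjusted p = 0.061), and with Valproate without NC library 2 (adjusted p = 0.136) or Valproate library 1 (adjusted p = 0.132). With Valproate, Ikbke was lost without NC library 1 (adjusted p = 0.0911) or Valproate library 2 (0.059), Lgals3bp without NC library 2 (0.155) or Valproate library 1 (0.125), and Oas1c without NC library 1 (0.08) or Valproate library 2 (0.0734). H2-Eb1 with DZNep was lost without DZNep library 1 (0.0518). Cd74 was lost with both compounds, and Erap1 with DZNep, without any 1 of the 4 libraries. Erap1 held with Bromosporine only without Bromosporine library 2 (0.0175) and with Valproate only without Valproate library 2 (0.0259), and Irf8 only without Bromosporine library 1 (0.00415) and without NC library 2 with Valproate (0.0334). Without NC library 1, the passing pathway genes numbered 8 with DZNep, 5 with Valproate, 2 with Bromosporine and 0 with MS023.

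The labelled cell type was checked in all libraries. All 10 pluripotency markers were present, with a summed value of 209156 to 307233 per library. Of 8 fibroblast markers, Dcn was listed at 0 throughout, and the sum was 745 to 1476 in NC, 1669 to 1938 with DZNep, 1476 to 1613 with Valproate, 657 to 740 with Bromosporine and 691 to 985 with OICR. The sums leaned on Col3a1 and Postn, which varied widely within some groups and leave the sums uncertain. Col3a1 had 4 and 743 in NC, 509 and 716 with DZNep and 307 and 722 with Valproate. Postn had 474 and 559 in NC, 677 and 819 with DZNep and 658 and 0 with Valproate. Col1a1 rose with DZNep (24 and 24 in NC, 327 and 228) and fell with Bromosporine (log2 difference -1.74), and Thy1 rose with DZNep and Valproate (12 and 11 in NC, 66 and 64, 358 and 303). Lum, listed at 0 in both NC libraries, had 197 and 331 with Valproate and 346 and 0 with CPTH2. Pdgfrb had 217 and 108 in NC, 57 and 64 with DZNep and 59 and 54 with Valproate and did not pass. The sum of the 4 immune markers found was 393 to 519 in NC, 670 to 1190 with DZNep, 256 to 276 with Valproate and 230 to 349 with Bromosporine. Cd68 had 341 and 204 in NC and 452 and 474 with DZNep, Cd3e 99 and 114 against 188 and 243, Itgam 79 and 75 against 30 and 35, and Ptprc, the pan-leukocyte marker, 0 and 0 against 0 and 438, and none of the 4 passed. The sum of the 3 endoderm markers found was 159 to 508 over all libraries, and Gata4 fell with DZNep (log2 difference -1.72). Of the pluripotency markers, Utf1 rose with DZNep, Valproate, Bromosporine and OICR (log2 differences 1.32 to 1.91) and Zfp42 with DZNep (1.15). The part of these markers in the member results was not tested.

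Every group had a library numbered 1 and a library numbered 2, and some members followed that number. With the number as a term beside the groups, 0 of 33 members differed over 2-fold (4.04% of all genes passed both thresholds), and 12 had an adjusted p under 0.05 (52.6% of all genes), 5 higher and 7 lower in number 2 (29.9% and 22.8% of all genes). Oas1a was higher in number 2 in 11 of 11 groups, by 0.82 on the log2 scale, with medians of 1358 in number 1 and 2380 in number 2 (adjusted p = 3.26e-05). Xaf1, a pro-apoptotic interferon-stimulated gene, was lower in 10 of 11 groups (log2 difference -0.78, adjusted p = 0.000472). Bst2 was lower in number 2 in 11 of 11 groups (-0.53, adjusted p = 1.93e-05), as was Irf1 (-0.48, adjusted p = 0.000175). What the numbers stand for is not stated in the labels. For all 16 calls against NC, the difference had the same sign within number 1 and within number 2.

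**Figure D4:**
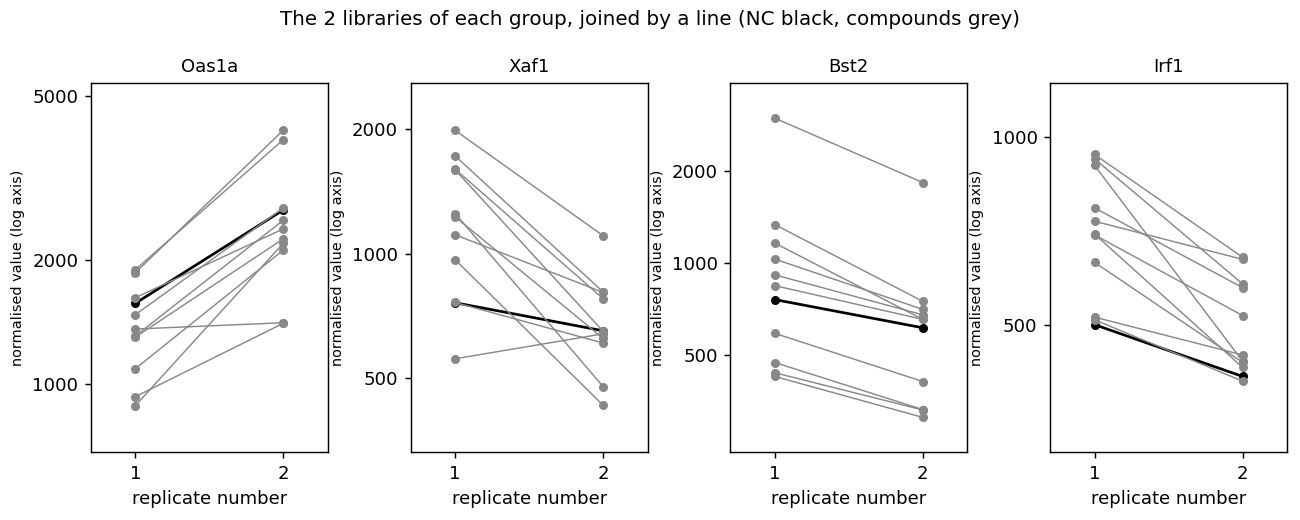
Normalised values on log axes for 4 members, with the 2 libraries of each group joined by a line, NC in black and the compounds in grey. Oas1a is higher in number 2 in 11 of 11 groups and Bst2 and Irf1 lower in 11 of 11, while Xaf1 is lower in 10 of 11.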

How the data were processed

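The authors deposited scores, here read counts per gene normalised and rounded to whole numbers, for 22 libraries of mouse E14 embryonic stem cells prepared from oligo-dT-selected RNA. The submitters' processing notes name bcl2fastq, Bowtie2 2.2.5, RSEM and mm10. The study's methods, which do not mention the compounds, describe RSEM or TEtranscripts counting followed by EDASeq normalisation. Which route gave the table, and whether strand was used, is not stated. The median (409) and highest value (221616) were equal in all libraries, as full-quantile normalisation leaves them, which hides depth and any change shared by most genes. The depth behind each value is therefore unknown, and a listed 0 can be a failed estimate, so no fold was given against a group at 0. A second table held the authors' group means and was not used.

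Groups and numbers came from the sample titles, with 0 columns unmatched. In R 4.3.3, limma 3.58.1 fitted 11 group means to log2(value + 1) for the 17275 of 18487 genes that reached 10 in 2 or more libraries (11 residual degrees of freedom, trended eBayes). P-values were two-sided and adjusted by the Benjamini-Hochberg method per contrast over all tested genes. Fold changes on this scale understate those of low genes. The study's threshold, adjusted p under 0.05 and fold over 2, was kept. Its DESeq2 test needs raw counts and was not run. The fit was tested on simulated data.

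Members and lists were chosen with earlier results of these data known. Values were printed for every member that passed against NC or in the F test, the 3 highest and 3 lowest members were named, and other pathway genes were named where they passed in at least 2 comparisons, with Psmb5 and Psmb7 added as examples after their values were seen. Positions and the share of 31-base stretches found in other genes came from GENCODE M21 (mm10), promoter windows from RefSeq. Alternatives were a pseudocount of 10, no filter, only the libraries of a comparison, the replicate number as a block, median-ratio rescaling, all other groups as reference, and leaving out each library. Figures were drawn in Python 3.11.15 with matplotlib 3.10.9.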

Additional observations from a re-analysis of the deposited data

Results flagged for a closer look

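Between DZNep and Valproate, 9 of 33 members (10.8% of all genes) passed in a direct limma contrast, log2 of DZNep over Valproate. The contrast was chosen after the values had been seen. H2-K1 (-3.57), Tap2 (-3.58), Bst2 (-2.67), Dhx58 (-1.40) and Stat2 (-1.11) were lower with DZNep. Tap1 (2.71), Zbp1 (2.69), Oasl1 (1.52) and Ddx58 (1.09) were higher with DZNep. Dhx58 had 16 and 12 normalised reads with DZNep and 44 and 33 with Valproate, and Zbp1 46 and 36 against 5 and 6. Oasl1 had 201 and 315 against 63 and 120, and Ddx58 507 and 330 against 191 and 191. The differences of H2-K1, Tap1, Bst2 and Tap2 passed without any 1 of the 4 libraries. Stat2 was just under 2-fold without Valproate library 1 (-0.97), Zbp1 was lost without any of the 4, Ddx58 without 3 of the 4, and Dhx58 and Oasl1 without DZNep library 2 or Valproate library 1.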

How the results depend on the processing

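The 25 calls of single members, 16 against NC and 9 between DZNep and Valproate, kept their direction and threshold with a pseudocount of 10, with no filter, with the replicate block and with median-ratio rescaling, which moved the median of all genes by at most 0.0358. Fitting only the 4 libraries of a comparison left 1 call: members passing were 0 with Bromosporine, 0 with DZNep, 0 with OICR, 1 with Valproate and 0 between DZNep and Valproate. Pathway genes were then 1 with Bromosporine, 0 with DZNep, and 1 each with Garcinol, MS023, OICR, UNC0379 and Valproate. Against the mean of all other groups, 14 of 16 calls were kept and Ddx58 with DZNep and H2-K1 with OICR were lost. Members were then 8 with Bromosporine, 2 with MS023 and 0 with OICR, and pathway genes 13 with Bromosporine, 1 with IOX1 and 4 with MS023. Without the filter 1 member passed with MS023, Usp18 (7 and 3 normalised reads, NC at 0), and Cxcl10 was added with DZNep (3 and 7, NC at 0, adjusted p = 0.0245). Leaving out 1 library kept 52 calls and lost 48. Members then numbered 0 to 4 with Bromosporine, 3 to 8 with DZNep, 0 to 1 with OICR, 0 to 3 with Valproate and 4 to 7 between DZNep and Valproate, and pathway genes 2 to 10 with Bromosporine, 8 to 13 with DZNep, 0 to 1 with MS023 and 4 to 9 with Valproate. The labels do not say what the replicate numbers mark. Deviations from group means correlated with those of NC at 0.0836 to 0.183, under 0.1 for DZNep and OICR, so the numbers were not taken as a pairing, although many genes follow them. With the replicate block, members were 2 with OICR, where Ddx58 was added (1.23, adjusted p = 0.0243), and 6 with Valproate, where Oasl1 was added (-1.23, adjusted p = 0.00904), pathway genes 4 with MS023 and 2 with OICR, and 25 members passed the F test. The shares of all genes given earlier for the calls and the F test belong to the main fit. No such share stands beside the counts of these alternatives, which are not read as results about the members. The causes were not tested. Depth is not known, so values near 0 bound nothing, and with 2 libraries per group all calls rest on a spread shared over 11 groups.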
